A study of Drosophila melanogaster with 8 samples.

Results

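The genes described here encode neuronal RNA-binding proteins: the ELAV family (elav, fne and Rbp9) and other RNA-binding proteins with known roles in fly neurons (Syp, bru3, mub, pum, Fmr1, Rbfox1 and nito). They were taken from a list of 10 symbols, matched to FlyBase identifiers. Of the 10, 7 had a row among the 11773 genes of each library, namely elav, fne, Rbp9, mub, pum, Fmr1 and nito. Syp, bru3 and Rbfox1 were not analysed here.

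The study asked how the brain of the fruit fly senses amino acids from the diet. RNA was sequenced in 8 libraries of brain neurons that make the neuropeptide Dh44 (diuretic hormone 44), all from 5-day-old flies on normal food. The flies were of the genotype DH44-GAL4;UAS-mCD8gfp, in which a Dh44 driver line switches on a membrane-bound green fluorescent protein, so a cell was picked because the driver was active in it. The 8 libraries form 1 group with no other cell type or diet beside it, and the labels tie none of them to an animal. Whether a library holds 1 cell or a pool is stated in different ways in the labels. No test between groups was therefore possible, and each spread given is that between libraries, which may be technical in part.

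RNA-binding proteins decide which transcript of a gene a neuron makes and how long, where and how strongly it is translated. ELAV proteins bind U-rich stretches of RNA, alter splice choice and let transcripts run on into longer 3′ ends, a hallmark of fly neurons. Elav protein marks nearly all fly neurons and is widely used as a neuronal marker, and in the fly nervous system fne can take over part of its nuclear function. Pumilio and FMRP act mainly later, on the translation of mRNAs at synapses and dendrites, and the Spenito protein encoded by nito belongs to the machinery that writes m6A, a methyl mark on mRNA.

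The libraries were not alike. Between 2518 and 5256 genes reached 1 FPKM (the authors' unit, fragments mapped to a gene scaled to exon length and library size) in a library, and library 1 had the fewest, followed by library 8 with 3798 and library 3 with 4094. Read depth is unknown. Medians and spreads of the 7 genes are given with and without libraries 1 and 8, which an earlier account of these data had set apart. Library 3 was kept, though its number of genes at 1 FPKM was close to that of library 8. The 8 measured markers of neurons (Syt1, Syx1A, brp, Snap25, Rab3, cpx, unc-13 and Appl) were at 1 FPKM or more in all 8 libraries. Markers of neural stem cells were at or near 0, with dpn, ase and wor listed at 0 in every library and the 6 markers summing to at most 7.57 FPKM. Of 6 glial markers 3 were at 1 FPKM or more in at least 4 libraries, against 41.2% of all genes. They were Gs2 (median 56.7 FPKM, up to 262 FPKM), nrv2 (40.2 FPKM, up to 181 FPKM) and loco, which reached 33.9 FPKM in library 1. The glial factor repo reached 2.87 FPKM at most. The glial markers summed to 46.4 to 327 FPKM per library. Fat body markers were abundant, summing to 14220 to 68390 FPKM, with the highest sums in library 8 and library 1 (56800 FPKM), and Fbp2 was listed at 0 throughout.

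All 7 genes were detected, that is, at 1 FPKM or more in at least 4 libraries, against 41.2% of all genes. Of the 7, 5 reached 1 FPKM in all 8 libraries, against 11.0% of all genes. The exceptions were elav, which lay at 0.821 FPKM in library 8, and nito, which was listed at 0 in library 1. An exact 0 in these files can be a failed estimate and is not read as absence. Together the 7 genes summed to 180 to 1034 FPKM per library, or 0.0193% to 0.121% of all FPKM, with the lowest share in library 8 and the highest in library 3.

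Within the ELAV family, fne was by far the most abundant gene. It was at 243, 548, 789, 551, 397, 692, 403 and 92.5 FPKM in libraries 1 to 8, a median of 475 FPKM. In libraries 2 to 7 it kept within 397 to 789 FPKM (median 549 FPKM), and the values of libraries 1 and 8 lay below that range. By its median it ranked 227 of all 11773 genes, and within single libraries its rank ran between 152 (library 3) and 797 (library 8). It exceeded elav and Rbp9 in all 8 libraries and, by median, 7 of the 8 neuronal markers, all but cpx (1311 FPKM), the gene of the synaptic fusion clamp complexin. That count was also 7 without libraries 1 and 8. The fne gene (FBgn0086675), named for "found in neurons", occupies chromosome X, 12917477 to 12950417, plus strand, and its exons overlap those of no other annotated gene.

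Rbp9, which acts in neurons and in the female germline, was the steadiest of the 7 genes over all 8 libraries. Without libraries 1 and 8 fne was steadier, with an SD of log2(FPKM + 1) of 0.40 against 0.57 for Rbp9. Its level was 24.5, 44.0, 58.0, 75.5, 23.9, 60.4, 40.2 and 48.0 FPKM in libraries 1 to 8, a median of 46.0 FPKM (51.0 FPKM without libraries 1 and 8). The highest value was 3.16 times the lowest, the smallest such ratio among the 6 genes with no value at 0. Libraries 5 and 1 were lowest and library 4 highest, whereas library 8, where fne and elav were lowest, was near the middle. The germline markers bam, aub, piwi, osk and zpg did not reach 1 FPKM in 4 libraries. In single libraries zpg reached 34.4 FPKM (library 3), piwi 13.2 FPKM and aub 5.88 FPKM (both library 6) and osk 1.36 FPKM (library 2). The gene bam, a known target of Rbp9 in the ovary, was at 0.203 FPKM at most. vas was detected and reached 61.8 FPKM in library 1. The Rbp9 gene (FBgn0010263) occupies chromosome 2L, 2954762 to 2968434, plus strand. Its exons share 142 bp with the antisense gene Ts, which had a median of 0 FPKM.

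elav, the marker gene itself, had no typical level. It was at 1.11, 49.6, 1.40, 105, 4.21, 31.7, 26.7 and 0.821 FPKM in libraries 1 to 8. Thus 4 libraries (1, 3, 5 and 8) were below 5 FPKM and the other 4 (2, 4, 6 and 7) at 20 FPKM or more, with nothing between 4.21 and 26.7 FPKM. The median of 15.4 FPKM falls in this gap. It became 26.7 FPKM without any 1 of libraries 1, 3, 5 or 8, 4.21 FPKM without any 1 of libraries 2, 4, 6 or 7, and 29.2 FPKM without libraries 1 and 8. By median, all 8 neuronal markers were higher than elav, and within single libraries 6 (library 4) to 8 of them were; without libraries 1 and 8, 7 were higher. Libraries 1, 3 and 8, with elav at 1.40 FPKM or less, were also those with the fewest genes at 1 FPKM, and what part this has in the low values was not tested. Library 5 had 4904 genes at 1 FPKM and elav at 4.21 FPKM.

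The elav gene (FBgn0260400) occupies chromosome X, 509235 to 523226, minus strand. Of the 10715 bp covered by its exons, 2994 bp are shared with the noncoding gene lncRNA:enrr on the same strand and 673 bp with the antisense gene arg, which had a median of 0 FPKM. Reads from these stretches could be assigned either way, so the level of elav is uncertain to that extent. Whether reads were shared among the 3 related ELAV genes was not tested, since no sequence was used here.

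**Figure D1:**
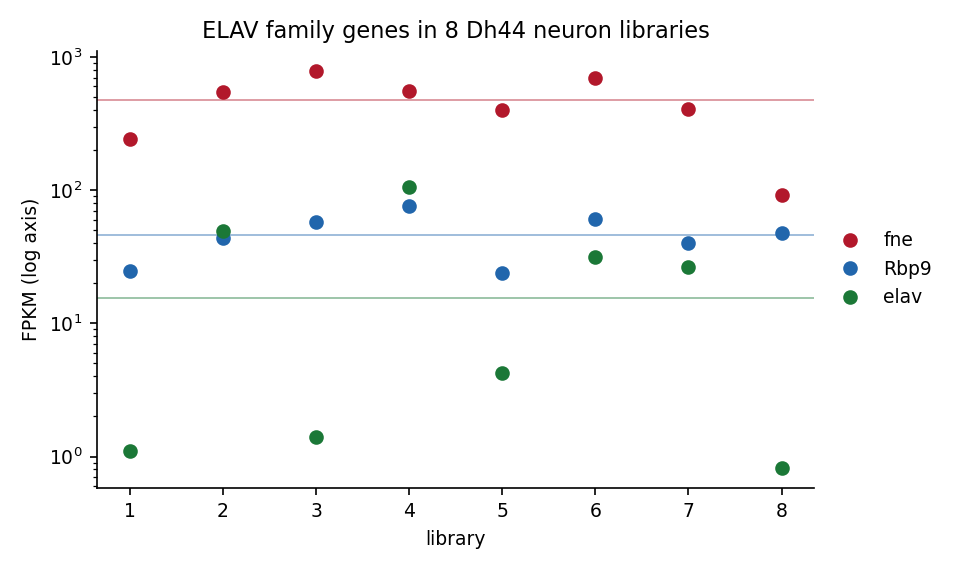
FPKM of fne, Rbp9 and elav (log axis) in each of the 8 libraries; points are single libraries and horizontal lines the medians over the 8 libraries. fne lies between 92.5 and 789 FPKM and above the other 2 genes in every library, Rbp9 between 23.9 and 75.5 FPKM, and elav either at 4.21 FPKM or less or at 26.7 FPKM or more.

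The make-up of the family differed between libraries in all 3 genes. fne supplied 90.5%, 85.4%, 93.0%, 75.3%, 93.4%, 88.3%, 85.8% and 65.5% of the summed FPKM of the 3 genes in libraries 1 to 8, with a median of 87.0% and an SD of 9.64 percentage points. The share of elav ran between 0.165% in library 3 and 14.4% in library 4. Rbp9 held 5.64% to 10.3% in libraries 1 to 7 and 34.0% in library 8, where fne was lowest. The ratio of fne to elav ranged between 5.24 in library 4 and 563 in library 3. On the log2(FPKM + 1) scale, which compresses differences among low values, fne exceeded elav by a median of 5.04 (SD 1.98, n = 8). The median difference was 4.14 without libraries 1 and 8, and the median ratio 18.5 against 58.0 in all 8 libraries. Leaving out any 1 of libraries 1, 3, 5 or 8 gave a median ratio of 21.9, and leaving out any 1 of libraries 2, 4, 6 or 7 gave 94.2. Rbp9 exceeded elav in 6 libraries, and elav was the higher of the pair in libraries 2 and 4.

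fne and elav did not vary together in library 3. That library had the highest fne of all libraries at 789 FPKM and, after libraries 8 and 1, the lowest elav at 1.40 FPKM. The same library stood highest for markers of insulin-producing cells, which summed to 32920 FPKM there, against a median of 3839 FPKM over the 8 libraries. Its detected markers of muscle and fat body lay above their medians in libraries 2 to 7 by a median of 2.10 and 1.08 on the log2(FPKM + 1) scale. The same deviation in library 3 was 0.48 for glia, -0.33 for photoreceptor and -0.77 for hemocyte markers. The part of these cells in the ELAV values was not tested. The ELAV family as a whole summed to 848 FPKM there, its highest value, and to 141 FPKM in library 8, its lowest. The files give 1 value per gene, so isoforms, among them the differently spliced forms of fne, could not be told apart.

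pum encodes Pumilio, a founding member of the PUF proteins, which bind 3′ untranslated regions and repress translation. In neurons it limits excitability and shapes dendrites. It was at 24.3, 73.6, 133, 125, 44.2, 69.0, 16.1 and 19.3 FPKM in libraries 1 to 8. Its median of 56.6 FPKM was the second highest of the 7 genes. Libraries 3 and 4 stood highest, and libraries 7, 8 and 1 lowest. Libraries 1, 8 and 3 had the fewest genes at 1 FPKM, and library 7 had 5088. What part this has in the values of pum was not tested. The median was 71.3 FPKM without libraries 1 and 8. The gene (FBgn0003165) occupies chromosome 3R, 9066343 to 9237682, minus strand.

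Of the listed partners of Pumilio in mRNA repression, nos had no row, and all those measured were detected, against 41.2% of all genes. brat, a co-repressor that joins Pumilio on its targets, had a median of 30.3 FPKM and was at 1 FPKM or more in all 8 libraries. Pop2, Not1 and twin encode subunits of the CCR4-NOT complex, which shortens poly(A) tails. Their medians were 36.2, 16.3 and 15.98 FPKM, and all 3 were listed at 0 in library 1. Pop2 was also listed at 0 in libraries 3 and 8, and twin in library 8. In library 1 pum itself was at 24.3 FPKM.

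Fmr1 encodes the fly FMRP, the protein lost in human fragile X syndrome, which binds mRNAs and holds back their translation at synapses. Its values were 3.86, 17.5, 9.15, 21.0, 36.4, 25.2, 19.8 and 4.82 FPKM in libraries 1 to 8, with a median of 18.7 FPKM. Libraries 1, 8 and 3, which had the fewest detected genes, were also the 3 lowest for Fmr1, and library 5 was the highest. Without libraries 1 and 8 its median was 20.4 FPKM. The gene (FBgn0028734) occupies chromosome 3R, 10101420 to 10110121, minus strand.

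Among genes of the ribonucleoprotein granules in which FMRP works, 8 of 9 measured were detected, Fmr1 included, against 41.2% of all genes. Of the 9, 7 reached 1 FPKM in all 8 libraries, against 11.0% of all genes. The granule genes were led by the small RNA effector gene AGO1 at a median of 48.2 FPKM and the granule protein gene tral at 43.3 FPKM. Next was gw, whose product acts with AGO1 in silencing, at 39.8 FPKM. By median, Fmr1 was the lowest of the 8 detected. Part of the exons of AGO1 overlaps antisense genes, so its value is uncertain to that extent.

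mub encodes a KH-domain protein related to the mammalian poly(C)-binding proteins and was named for its expression in the mushroom body, the learning centre of the fly brain. It was at 99.7, 55.0, 34.8, 13.2, 14.9, 41.7, 16.8 and 9.12 FPKM in libraries 1 to 8, so library 1, the one with the fewest detected genes, had the highest value, which was so for none of the other 6 genes. The median was 25.8 FPKM, also without libraries 1 and 8. Leaving out any 1 of libraries 1, 2, 3 or 6 gave a median of 16.8 FPKM. The gene (FBgn0262737) occupies chromosome 3L, 21844788 to 21932702, plus strand. It was the fourth of the KH-domain genes, after ps (165 FPKM), the fly counterpart of the neuronal splicing factor Nova, qkr54B (44.3 FPKM) and qkr58E-3 (41.7 FPKM). In that list 7 of 8 measured genes were detected, against 41.2% of all genes.

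nito had the lowest median of the 7 genes. Its values were 0, 40.3, 9.12, 20.5, 6.02, 2.37, 26.03 and 5.73 FPKM in libraries 1 to 8. The median was 7.57 FPKM over the 8 libraries and 14.8 FPKM without libraries 1 and 8. Libraries 2, 7 and 4 were highest, and these are also 3 of the 4 libraries with elav at 20 FPKM or more. In the remaining one, library 6, elav was at 31.7 FPKM and nito at 2.37 FPKM, its lowest value above 0. The gene (FBgn0027548) occupies chromosome 2R, 7962463 to 7969805, plus strand. Its exons share 442 bp with the antisense gene CG8726, whose median of 90.5 FPKM was far above that of nito, and 300 bp with the antisense gene CG14763. Without information on strand the value of nito cannot be separated from reads of CG8726.

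Other genes of the Spen family and of m6A were detected in part. Of 7 measured, 5 were detected, against 41.2% of all genes. Ythdc1, the nuclear reader of the mark, had the highest median at 35.0 FPKM, and Ythdf, a cytoplasmic reader, was at 16.7 FPKM, both listed at 0 in libraries 1 and 8. spen, the larger relative of nito, had a median of 22.2 FPKM and fell under 1 FPKM in no library. fl(2)d, a subunit of the writer complex, had a median of 14.9 FPKM. Another subunit gene, vir, reached 0.07 FPKM in library 7 and was listed at 0 in the other libraries.

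**Figure D2:**
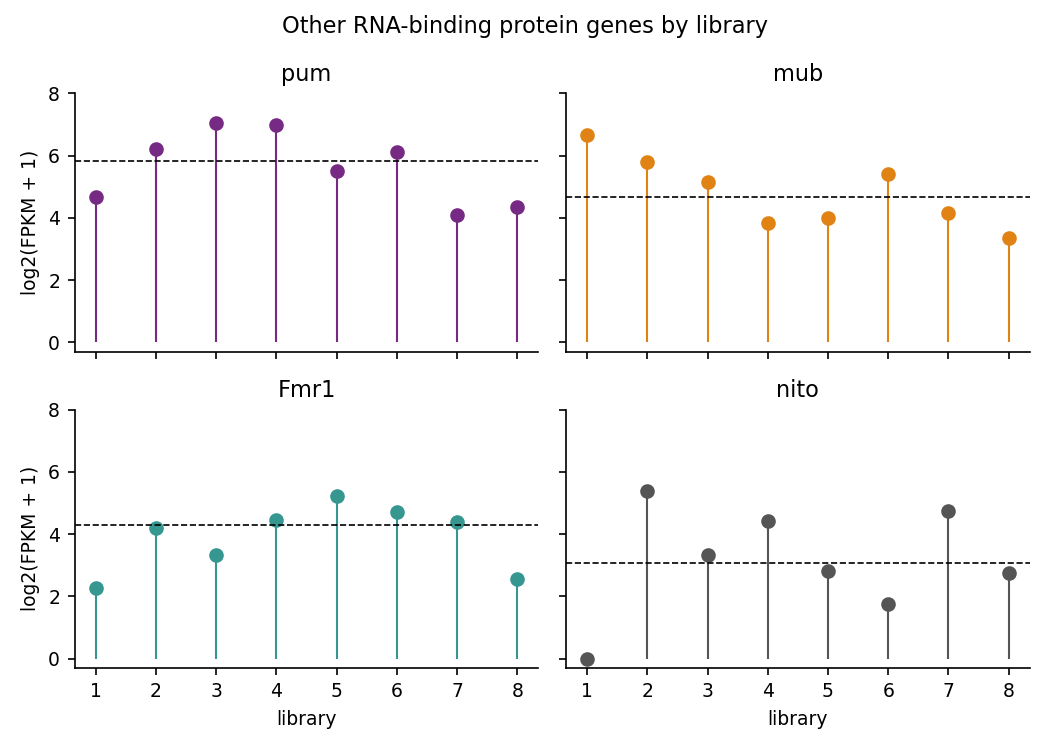
log2(FPKM + 1) of pum, mub, Fmr1 and nito in each of the 8 libraries; each point with its stem is 1 library and the dashed line is the median. mub is highest in library 1, where nito is listed at 0, and Fmr1 is lowest in libraries 1 and 8.

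The order of the medians was fne, pum, Rbp9, mub, Fmr1, elav and nito. fne was 8.39 times as high as pum by the ratio of medians and above it in all 8 libraries. Below fne the neighbours did not separate. pum exceeded Rbp9 in 5 of 8 libraries, Rbp9 exceeded mub in 6, mub exceeded Fmr1 in 5, Fmr1 exceeded elav in 4 and elav exceeded nito in 5. Over a wider step the order held better, since Rbp9 exceeded nito in all 8 libraries and pum exceeded Fmr1 in 7. These counts compare levels within each library on the FPKM scale.

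The 7 genes also differed in how much they varied. The SD of log2(FPKM + 1) over the 8 libraries was 0.58 for Rbp9, 0.99 for fne, 1.06 for Fmr1, 1.14 for mub, 1.16 for pum, 1.75 for nito and 2.34 for elav. For 6 of the 7 it lay below the median SD of genes of similar mean level, taken as a running median along the mean, with differences between -0.07 (elav) and -1.33 (Fmr1). fne was the exception, with an SD of 0.99 against 0.82 for genes of its level. This turned round without libraries 1 and 8, where the SD of fne was 0.40, against 0.47 for genes of its level. The SDs without these libraries were 0.57 for Rbp9, 0.62 for Fmr1, 0.84 for mub, 1.10 for pum, 1.35 for nito and 2.07 for elav. For 5 of the 7 genes they lay below those of genes of similar level, with pum and elav above by 0.20 and 0.15. Without libraries 1 and 8 the median SD of the 7 genes was 0.84, against 1.14 in all 8 libraries.

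Libraries 1 and 8 were low for most of the 7 genes, each in its own way. In library 8 all 7 lay below their medians in libraries 2 to 7, with a median deviation of -1.84 on the log2(FPKM + 1) scale, and 66.0% of all detected genes were lower there with a median deviation of -1.29. The deviations in library 8 were -4.05 for elav, -2.56 for fne, -1.88 for Fmr1, -1.84 for pum, -1.32 for mub, -1.13 for nito and -0.07 for Rbp9. In library 1, 6 of 7 were lower with a median deviation of -1.52 over the 7, whereas 73.5% of all detected genes were lower with a median deviation of -2.22. mub was the gene that was higher in library 1, by 1.99, and nito (-3.88) and elav (-3.84) were the furthest below. The 8 neuronal markers had median deviations of -1.27 in library 8 and -1.09 in library 1. Among markers of other cells in library 8, the detected fat body genes had a median deviation of 1.83, photoreceptor 1.59, hemocyte 0.40, muscle -0.15, glia -1.25 and insulin cells -2.48. Photoreceptor markers summed to 7844 FPKM in library 8, with Rh5 at 3995 FPKM and ninaE at 2543 FPKM, against a median sum of 1554 FPKM over the 8 libraries. In library 1 the deviations were 1.90 for glia, 1.58 for fat body, 1.02 for hemocyte, 0.43 for photoreceptor, -2.04 for insulin cells and -2.50 for muscle. What part these cells have in the low values was not tested. In such RNA, fewer cells of a type and less RNA per cell cannot be told apart.

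**Figure D3:**
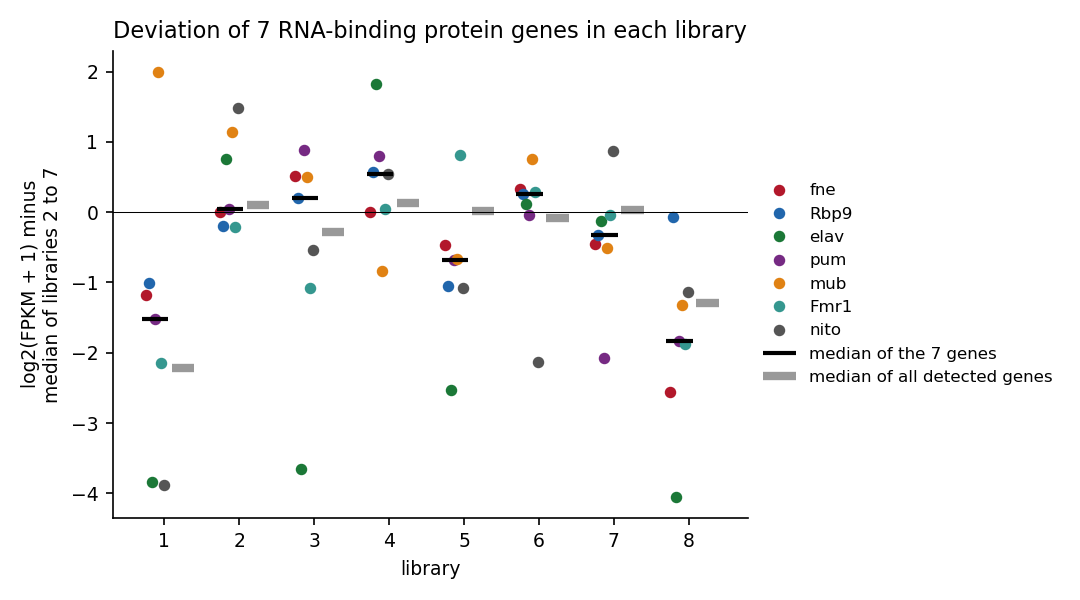
Deviation of each of the 7 genes in each library from its median in libraries 2 to 7, in log2(FPKM + 1); black bars are medians of the 7 genes and grey bars medians of all 4846 detected genes. In library 8 the black bar (-1.84) lies below the grey bar (-1.29), and in library 1 the black bar (-1.52) lies above the grey bar (-2.22).

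Profiles over the 8 libraries were compared after centring each gene on its own mean of log2(FPKM + 1), with the root-mean-square difference as the measure. Among the 7 genes the most alike pair was fne and pum, with a difference of 0.73, followed by fne and Fmr1 with 0.85. The least alike pair was mub and elav with 2.50. The 3 genes nearest to fne were Nipsnap, vsg and Gs1, a glutamine synthetase gene, with differences of 0.28, 0.32 and 0.33. For Rbp9 they were the chromatin remodeller gene kis (0.28), spen (0.31) and the receptor kinase gene Alk (0.32). For elav they were CG12084, CG1418 and CG12118, with larger differences of 0.86 to 0.89. All 3 were at 24.1 FPKM or more in elav's 4 high libraries except CG1418, which was at 21.0 FPKM in library 7, and all 3 were at 9.24 FPKM or less in the other 4. The exons of vsg, kis and these 3 genes overlap those of other genes. With many genes and 8 libraries some profiles will be close in any case, and the libraries share their differences in detection.

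The 7 genes were placed among a wider set of RNA-binding protein genes. Of 77 genes listed, 63 had a row. Of these 63, 59 were detected, or 52 of 56 without the 7 genes, against 41.2% of all genes. Their medians had a median of 24.3 FPKM over the 63 genes. fne ranked first of the 63, pum 14, Rbp9 18, mub 31, Fmr1 41, elav 47 and nito 54. The gene closest to fne was mbl, the fly muscleblind gene of alternative splicing, with a median of 389 FPKM and values between 42.0 FPKM in library 1 and 614 FPKM in library 5. Next came Hrb27C, an hnRNP gene, at 253 FPKM (3.93 to 476 FPKM), also lowest in library 1. In that library fne was at 243 FPKM.

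All 12 measured splicing genes and all 11 measured hnRNP genes were detected, against 41.2% of all genes. Of these, 5 splicing and 6 hnRNP genes reached 1 FPKM in all 8 libraries, against 11.0% of all genes. Among the genes named next, Rsf1 and snf were listed at 0 in library 8, and B52 and heph in library 1. After mbl, the splicing genes were led by Rsf1 (108 FPKM) and B52 (101 FPKM), which encode SR proteins or their antagonist, then snf (95.3 FPKM), a protein of the spliceosome, and the SR protein gene SF2 (92.5 FPKM). The hnRNP genes after Hrb27C were Hrb98DE (114.6 FPKM), sqd (98.9 FPKM), the polypyrimidine tract binding protein gene heph (83.4 FPKM) and sm (43.5 FPKM), the counterpart of hnRNP L. The exons of SF2 overlap those of Sulf1 on the same strand. Among genes of mRNA localisation and local translation, all 8 measured were detected. lark was at a median of 71.8 FPKM and above 1 FPKM in all 8 libraries. orb2, a CPEB protein gene needed for long-term memory in flies, was at 51.2 FPKM, stau at 48.3 FPKM and TBPH, the fly TDP-43 gene, at 20.6 FPKM. orb2 was listed at 0 in library 1, TBPH in libraries 1 and 3, and stau in library 8. Overlaps of exons with antisense genes also touch brat, Not1, twin (454 bp with cav, at a median of 11.5 FPKM), qkr58E-3 and lark, and orb2 shares exons with CG43783 on the same strand, so their values are uncertain to that extent.

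**Figure D4:**
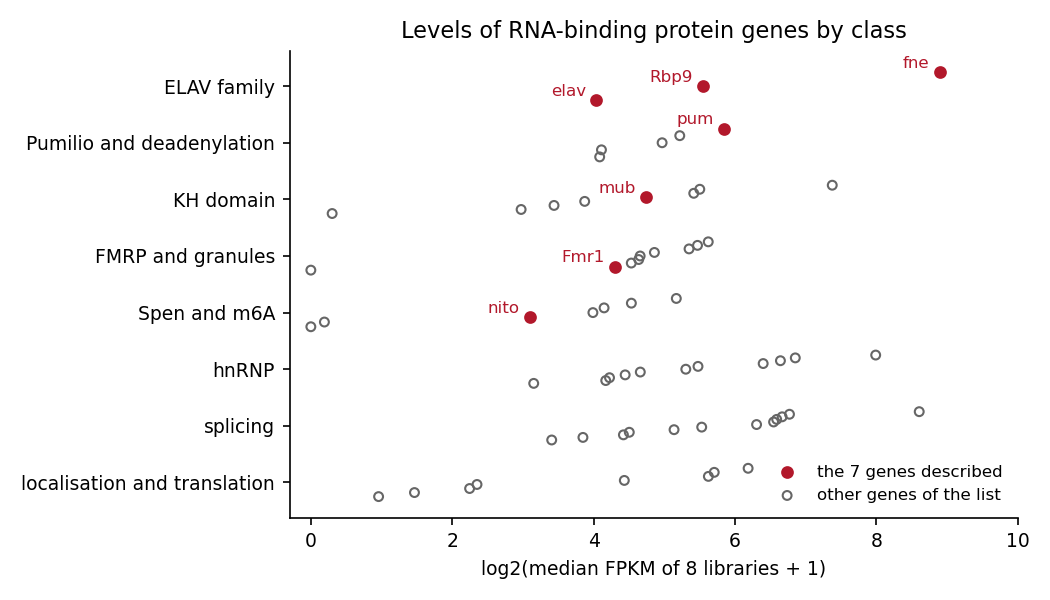
Level of each measured RNA-binding protein gene, as log2 of its median FPKM over 8 libraries plus 1, by class; filled points are the 7 genes described and open points the other genes of the class. fne (475 FPKM) lies furthest right, with mbl (389 FPKM) next, and elav (15.4 FPKM) and nito (7.57 FPKM) rank 47 and 54 of 63.

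Of 7 measured transcripts described in the literature as targets of these proteins, 6 were detected, against 41.2% of all genes. The exception was hb, with a median of 0.75 FPKM and 1 FPKM or more in 3 libraries. chic, the profilin gene and an FMRP target, had a median of 520 FPKM (265 to 651 FPKM). Rac1, another FMRP target, was at 94.8 FPKM but at 1.64 FPKM in library 8, and futsch, the MAP1B gene whose translation FMRP represses, was at 15.8 FPKM. Nrg and arm, whose pre-mRNAs ELAV processes in neurons, had medians of 75.9 and 103 FPKM and were at 1 FPKM or more in all 8 libraries. ewg, another gene whose pre-mRNA ELAV processes, had a median of 1.98 FPKM and is named here after its values were seen. It was at 0, 3.96, 0, 41.7, 0, 23.7, 0 and 10.3 FPKM in libraries 1 to 8. Thus ewg was listed at 0 in libraries 1, 3 and 5, with elav at 4.21 FPKM or less, and in library 7, with elav at 26.7 FPKM. In library 8, where elav was lowest at 0.821 FPKM, ewg was at 10.3 FPKM. In libraries 1, 3, 5 and 8, the 4 libraries with elav below 5 FPKM, Nrg was at 28.9, 76.3, 40.7 and 6.98 FPKM and arm at 287, 55.9, 83.4 and 35.2 FPKM. Gene-level values do not show which transcript form was made. The exons of arm overlap mRpL16 and those of futsch overlap Gr2a, so these values are uncertain to that extent.

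The 7 genes share long transcripts. Their longest annotated 3′ untranslated regions measured 9514 bp for mub, 8557 bp for elav, 5048 bp for Rbp9, 4927 bp for fne, 4602 bp for pum, 1812 bp for Fmr1 and 1404 bp for nito. The median over the 7 was 4927 bp, against 224 bp over the 10934 measured protein-coding genes with such an annotation, and all 7 lay above percentile 90 of them. Exons covered a median of 9561 bp per gene in the 7, against 1718 bp in all measured protein-coding genes. The longest gene was pum, which spans 171340 bp. The number of annotated transcripts had a median of 9 in the 7 genes, against 2 in all. FPKM divides by exon length, and which length the authors used for genes with alternative 3′ ends is not given in the sources used here, so levels of genes with very long 3′ ends, such as elav and mub, depend on it.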

How the data were processed

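The authors deposited 1 FPKM value per gene and library for 8 libraries. Per the labels' protocols, reads were cleaned of poor bases, adaptors and primer sequence and then aligned to the fly genome. TopHat is named in the submitters' processing notes. For its version, the genome build, the annotation, the FPKM program and strand, nothing is given in the sources used here. FPKM is normalised to exon length and mapped fragments. Values above 0 reached below 1e-10, so whole reads were not recovered and no counting interval is given.

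Of 11773 identifiers, 11646 matched a symbol. Coordinates, exon lengths and overlaps come from Ensembl release 115 (BDGP 6.54), which may differ from the authors' build. Detection meant 1 FPKM or more in 4 libraries or more, and the log scale was log2(FPKM + 1). Similar profiles were sought among genes with a mean of 3 or more on that scale. Genes named were all members, up to 5 detected genes per list by median, and the 3 nearest profiles of each ELAV gene. Markers, overlapping genes, and ewg, hb, vir and nos were also named beside a result. Members and lists were chosen with earlier results of these data known. The running median and the profile comparison were tested on simulated data (Python 3.11.15, pandas 2.3.3). Alternatives were other thresholds, pseudocounts, scalings and libraries left out.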

Additional observations from a re-analysis of the deposited data

Results flagged for a closer look

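In each of 48 items, among them the named genes, the top and bottom library were set against the others. For 3 genes the gap exceeded Dixon's 95% critical value of 0.526 of the range of the 8 libraries. The share of Rbp9 in the ELAV family was not among these 3 flagged items, but its gap also exceeds that value. It was 34.0% in library 8 and 5.64% to 10.3% in libraries 1 to 7. For normally distributed values about 1 in 20 would exceed it by chance, and FPKM values are skewed. The highest elav value was 105 FPKM in library 4, where the other 7 libraries had a median of 4.21 FPKM. In the same library futsch, the MAP1B gene, was at 54.7 FPKM, against a median of 15.8 FPKM in the other 7 libraries. brat, the co-repressor of Pumilio, was at 108 FPKM in library 2, against 25.4 FPKM in the other 7 libraries.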

How the results depend on the processing

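The 7 genes were detected under each alternative tried: at 0.1 or 5 FPKM, in at least 2 or 6 libraries, with each library rescaled to the same sum, without libraries 1 and 8, and without any 1 library. The count of 59 RNA-binding protein genes became 61 at 0.1 FPKM, 56 at 5 FPKM, 62 in at least 2 libraries and 52 in at least 6, and ran between 56 and 59 without any 1 library. The median difference between fne and elav ran between 3.78 (pseudocount 10) and 5.49 (pseudocount 0.1), and between 4.41 and 5.68 without any 1 library. The share of fne in the family ran between 85.8% and 88.3% without any 1 library and was 87.6% when FPKM was multiplied by exon length. The deviation of the 7 genes in library 8 was -1.04 with a pseudocount of 10 and -1.39 when libraries were scaled to the median of 1300 genes at 1 FPKM or more in all 8. Leaving out single libraries was chosen after seeing the data. Of 151 alternative values, 151 kept their direction and moved by less than the SD between libraries, or, for counts, by less than 1.5 times. That SD includes libraries 1 and 8 and is wide for elav, whose median was 4.21 or 26.7 FPKM without any 1 library. Leaving out 1 of 8 libraries can hardly move a median by that much, so the count of 151 does not measure robustness. No paired analysis was possible because the 8 libraries form 1 group. Depth is unknown, so a value near 0 cannot be told from a gene that was missed.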
